A study of Mus musculus with 16 samples.

Results

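The 35 genes described here encode the machinery that removes poly(A) tails, takes off caps and degrades mRNA. They were chosen by function, and were grouped as the CCR4-NOT complex (11 genes), other deadenylases (3), decapping with 5′-3′ decay (11), nonsense-mediated decay, NMD (6), and the RNA exosome (4). Of the 35 genes, 34 were found in the count table of 55401 genes by symbol. Pat1b was found as Patl1, its symbol in the table, through a synonym in the RefSeq gene table. RNA came from MC38, a mouse colon adenocarcinoma line, in 2 genotypes: cells labelled WT, whose sample titles carry the tag gNC, and cells labelled Ythdf2-KO, whose titles carry gY2. No drug or other treatment is named for either genotype, and the labels do not say how many clones each stands for. Counts were given for 3 WT and 3 Ythdf2-KO input libraries, of polyadenylated RNA before immunoprecipitation. Peaks were given as 1 list each for m6A in WT cells (3 libraries), m6A in Ythdf2-KO cells (3 libraries) and RNA pulled down with an antibody against YTHDF2, called RIP below (2 libraries). The RIP libraries are also labelled WT, but their titles carry neither gNC nor gY2. Whether they came from the same WT cells as the counts and m6A peaks is therefore not known.

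YTHDF2 is a cytoplasmic protein that binds N6-methyladenosine (m6A) in mRNA and shortens the life of the transcripts it binds. In human cells it recruits the CCR4-NOT complex through a direct contact with the scaffold subunit CNOT1, so that the poly(A) tail is removed. After the tail is shortened, mRNA is either decapped by DCP2 and degraded from the 5′ end by XRN1, or degraded from the 3′ end by the exosome. NMD, driven by the helicase UPF1, feeds transcripts with a premature stop codon into the same pathways. The comparisons below ask whether the transcripts of this machinery carry m6A and YTHDF2 peaks themselves, and whether their levels differed between the genotypes.

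The sites below show m6A peaks of transcripts that also had a RIP peak at the site, and of transcripts that had no RIP peak. Each is 25 bases of mature mRNA, written 5′ to 3′ with T for U, centred within a WT m6A peak on GGACT, a common form of the m6A consensus, which is in capitals. The sequences come from the GENCODE M21 transcripts (GRCm38). The first 5 lie inside RIP peaks, at chr8:40507520-40507544 on the minus strand (Cnot7, coding sequence), chr9:44637080-44637104 on the plus strand (Ddx6, 3′UTR), chr5:147546749-147546773 on the plus strand (Pan3, 3′UTR), chr6:35051103-35051127 on the minus strand (Cnot4, coding sequence) and chr7:118134987-118135011 on the minus strand (Smg1, 3′UTR). The other 4 lie in genes with no RIP peak, at chr4:148580395-148580419 on the plus strand (Exosc10, coding sequence), chrX:37104429-37104453 on the minus strand (Upf3b, coding sequence), chr11:74929267-74929291 on the plus strand (Smg6, coding sequence) and chr1:39546532-39546556 on the plus strand (Cnot11, 3′UTR).
Cnot7: aatccagctcGGACTgacctttatg
Ddx6: gccggaaggtGGACTagtgatggca
Pan3: caaaggaacaGGACTtttgataaaa
Cnot4: gtaatttcttGGACTtgaatctccc
Smg1: tttcagaaatGGACTgaaaaaatgg
Exosc10: agtgacctgaGGACTatagagcaaa
Upf3b: acaaaagttgGGACTatcgaggatg
Smg6: aaagactgttGGACTagaggaccga
Cnot11: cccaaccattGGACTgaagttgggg

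Total counts per input library ran from 45441281 to 50959555. After TMM scaling of these totals, 3 counts were worth 0.0582 to 0.0651 CPM, the unit used below for counts scaled by library size. Ythdf2 was at 55.6, 68.6 and 59.7 CPM in WT and at 67.9, 59.8 and 61.5 CPM in the Ythdf2-KO libraries, and the groups overlapped. Counts over a whole gene cannot show a frameshift or a small deletion, so they do not check the knockout, and the direction of every difference rests on the labels. The library labelled Ythdf2-KO replicate 1 stood apart from its group. Its chi-square per degree of freedom over genes was 26.8, 42.4 and 42.6 against WT replicates 1 to 3, and 64.3 and 63.9 against Ythdf2-KO replicates 2 and 3, which differed from each other by 9.25. WT replicate 1 also stood apart, at 27.4 and 25.3 against WT replicates 2 and 3, which differed from each other by 8.31. Results are also given without Ythdf2-KO replicate 1 and without replicate 1 of both groups. Against the epithelial origin of the line, the 5 epithelial markers summed to 0.196 to 0.254 CPM in WT and 0.136 to 0.427 CPM in the Ythdf2-KO libraries (Epcam and Krt18 were at 0 in all 6), while the 7 fibroblast markers summed to 2120 to 2680 CPM in WT and 1500 to 2640 CPM in the Ythdf2-KO libraries, most of it Col3a1. The part of these markers in the results below was not tested.

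The decay machinery was expressed throughout, with Dcp1b as the exception. Divided by the length of the merged exons of each gene, WT levels ran from 2.29 CPM per kilobase for Pan3 to 57.8 ± 2.85 (SD, n = 3) for Xrn2, a span of 25.2-fold. Xrn2, the nuclear 5′-3′ exonuclease that acts in transcription termination, was the most abundant. Xrn1, its cytoplasmic counterpart, which degrades decapped mRNA, was among the lowest, at 2.59 ± 0.106 CPM per kilobase (SD, n = 3). The annotated exons of Xrn1 add up to 18585 bases, more than the longest Xrn1 transcript, at 10256 bases. Dividing by the longest transcript of each gene left Xrn2 at rank 1, and put Xrn1 at rank 34 of 35, the lowest of the tested genes, and Pan3 at rank 30. Of the 33 neighbouring pairs of tested genes in the order of level, 10 did not overlap between their WT libraries. Most neighbours in the order therefore could not be separated beyond their spread.

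Within CCR4-NOT, the level of the catalytic subunits differed between paralogs that take the same place in the complex. Cnot8 (36.3 ± 1.55 CPM per kilobase in WT, SD, n = 3) stood above Cnot7 (11.3 ± 0.567), both of them deadenylases of the Caf1 type. Cnot6 (14.5 ± 1.09) stood above Cnot6l (4.44 ± 0.322), deadenylases of the Ccr4 type. The scaffold Cnot1 was at 15.9 ± 0.735 CPM per kilobase. Cnot9, which binds partner proteins, was at 18.6 ± 0.622. The E3 ubiquitin ligase Cnot4 was at 2.98 ± 0.0389, the lowest of the complex by merged exons, but by longest transcript Cnot6l was lower (rank 32 of 35 against 29 for Cnot4). Medians per subgroup in WT were 11.1 CPM per kilobase for CCR4-NOT, 6.27 for the other deadenylases, 13.7 for the tested decapping genes, 13.4 for NMD and 24.9 for the 4 exosome genes.

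**Figure D1:**
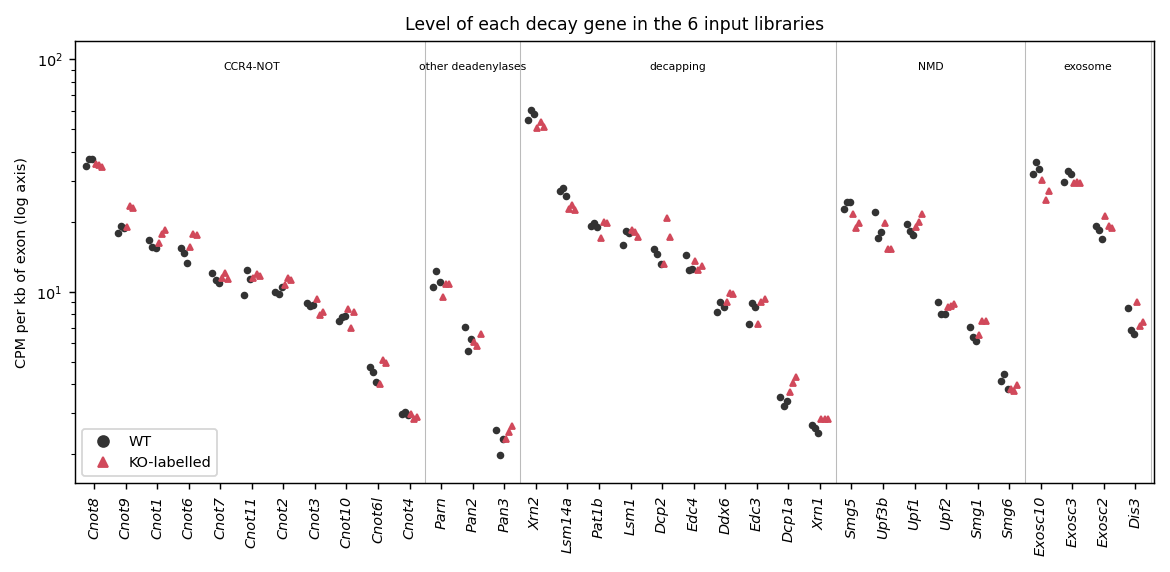
Level of each of the 34 tested decay genes in the 6 input libraries, in CPM per kilobase of merged exons on a log axis, with WT libraries as circles and Ythdf2-KO libraries as triangles. Xrn2 was highest and, on this length scale, Pan3 lowest, and for most genes the circles and triangles overlap. Dcp1b, at 0 counts in every library, is not drawn.

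Dcp1b is 1 of the 2 DCP1 paralogs of mammals, which activate the decapping enzyme. It had 0 counts in all 6 libraries, which allows up to 0.0651 CPM by counting error in WT replicate 2, the shallowest after TMM scaling. Its paralog Dcp1a accounted for 100% of the pair in every library. Dcp1b (chromosome 6, 119175253 to 119221616, plus strand, GRCm38) overlaps Cacna1c, on the other strand, at 0.587 to 1.38 CPM. The next gene on the same strand, Cacna2d4, was at 0 to 0.679 CPM. Adipor2, further along on the minus strand, was at 56.2 to 85.9 CPM, so the neighbourhood held genes near 0 and expressed genes. Whether the counting left Dcp1b out cannot be told from the table alone.

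None of the 34 tested genes changed between the genotypes at an adjusted p of 0.05 by the quasi-likelihood test of edgeR. Over all 18969 genes tested, 4.54% were called, and 6.2% of the 6884 genes in the CPM range of the decay genes. The background of higher calls was 2.99% and that of lower calls 1.54%. At an unadjusted p below 0.05 there were 6 genes, against a background of 29.5% of all genes and 37.3% in that CPM range. Of these, Cnot6, Cnot9 and Dcp1a had the higher values in the Ythdf2-KO libraries and Lsm14a, Smg5 and Exosc10 the lower ones. DESeq2 called 2 of the genes lower, Exosc10 (log2 fold change -0.31, adjusted p = 0.0389) and Lsm14a (-0.23, adjusted p = 0.0494), and 0 higher, against a background of 19.8% of genes called by that tool, and 6.83% called lower. In bulk RNA, fewer cells that express a gene and less RNA per cell cannot be told apart.

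The differences were small. The log2 fold changes, Ythdf2-KO over WT, lay between -0.31 and 0.25, with a median of 0.046 and a median size of 0.12. The median size over all genes tested was 0.26, and 0.18 in the same CPM range. All 34 stood within 0.32 of 0, as did 75.1% of genes in that CPM range. That bound lies just beyond the largest change of the 34, -0.31, so all 34 falling within it is no separate result. The 95% intervals of 33 of the 34 lay within a 1.5-fold change either way. The exception was Dcp2, whose interval reached 0.62. The share of all genes with intervals this narrow was not worked out, so whether this is particular to the decay genes is not known. In 4 genes (Cnot2, Cnot6, Dcp1a and Xrn1) all Ythdf2-KO libraries lay above all WT libraries, and in 5 (Xrn2, Lsm14a, Smg5, Exosc3 and Exosc10) below, while the groups overlapped in 25. Over all genes, 33.8% did not overlap (17.7% higher and 16.2% lower). In the CPM range of the decay genes 38.9% did not (26.7% higher and 12.2% lower), so the 9 of 34 are no more than the background.

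**Figure D2:**
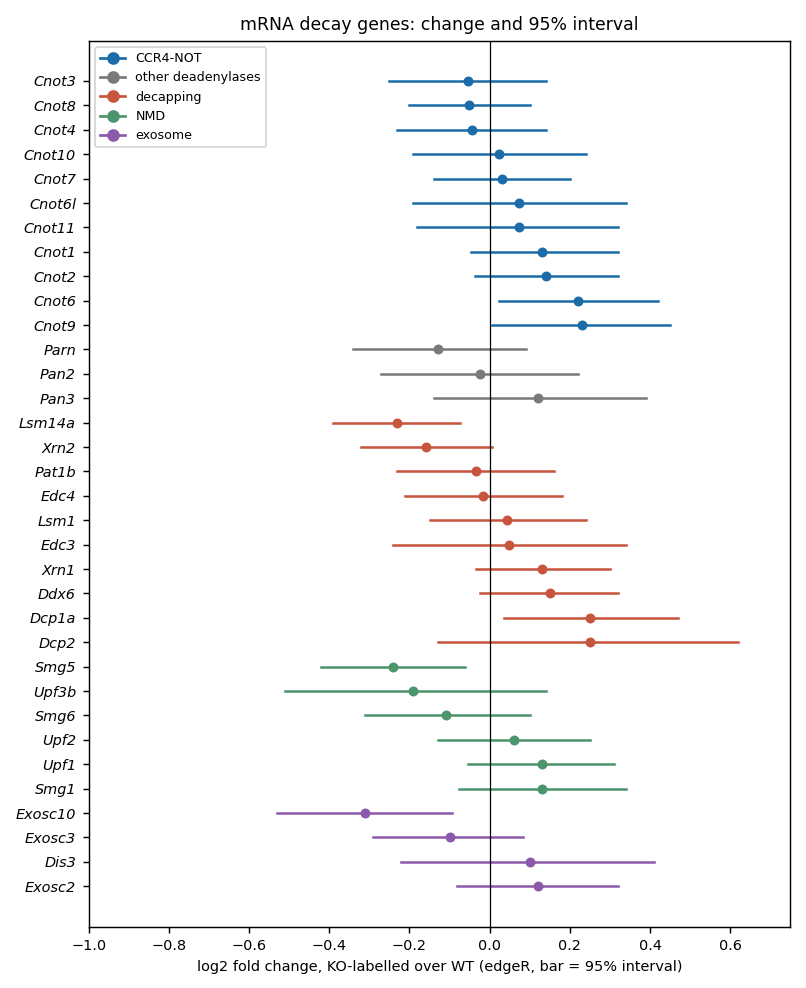
Log2 fold change of each tested decay gene, Ythdf2-KO over WT, from edgeR, with bars for the 95% interval and colours for the 5 subgroups. All points lie between -0.31 and 0.25, and the bars of 6 genes leave out 0 before adjustment.

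The lowest adjusted p belonged to genes with lower values in the Ythdf2-KO libraries. Exosc10, the nuclear 3′-5′ exonuclease of the exosome (chromosome 4, 148558429 to 148582401, plus strand), was at 115, 130 and 121 CPM in WT and at 109, 89.4 and 97.0 CPM in Ythdf2-KO replicates 1 to 3. All WT libraries stood above all Ythdf2-KO libraries, with replicate 1 of the latter nearest to them. The log2 fold change was -0.31 (SE 0.093, 95% interval -0.53 to -0.095, adjusted p = 0.0835 by edgeR). Without Ythdf2-KO replicate 1 it was -0.39 and was called (adjusted p = 0.00636 by edgeR).

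Smg5, an adaptor that binds phosphorylated UPF1 in NMD (chromosome 3, 88336260 to 88362338, plus strand), was at 158, 169 and 169 CPM in WT and at 150, 131 and 138 CPM in the Ythdf2-KO libraries. The groups did not overlap, and again Ythdf2-KO replicate 1 was nearest to WT. The log2 fold change was -0.24 (SE 0.077, adjusted p = 0.0955 by edgeR). Lsm14a, a P-body protein that binds DDX6 (chromosome 7, 34344646 to 34393315, minus strand), was at 166, 171 and 158 CPM in WT and at 139, 145 and 138 CPM in the Ythdf2-KO libraries. Here the 3 Ythdf2-KO libraries lay together, clear of WT. The log2 fold change was -0.23 (SE 0.067, adjusted p = 0.0798 by edgeR), the lowest adjusted p of the 34 genes. Exons of Lsm14a overlap 2310043P16Rik and Gm12764 on the other strand, and whether counting used strand is not stated, so reads of these genes could be shared. The same limit holds for all 13 tested genes with such an overlap (Cnot1, Cnot2, Cnot3, Cnot7, Cnot9, Edc3, Xrn1, Lsm14a, Upf1, Smg6, Exosc2, Exosc3 and Dis3). On the same strand, 2 tested genes overlap another gene (Cnot3 and Edc4).

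On the other side, Dcp1a, an activator of DCP2 (chromosome 14, 30479535 to 30527063, plus strand), was at 29.0, 26.5 and 27.8 CPM in WT and at 30.6, 33.3 and 35.4 CPM in the Ythdf2-KO libraries. The groups stood apart by a narrow gap. The log2 fold change was 0.25 (SE 0.093, adjusted p = 0.127 by edgeR). Dcp2, the catalytic subunit of decapping, was at 133, 127 and 114 CPM in WT and at 114, 180 and 150 CPM in the Ythdf2-KO libraries. Its replicate 1 sat at the lowest WT value while the other 2 lay above every WT library, and the log2 fold change of 0.25 had the widest interval of the set (-0.13 to 0.62, adjusted p = 0.336 by edgeR). Cnot9 (chromosome 1, 74506058 to 74530842, plus strand) was at 68.7, 73.3 and 71.8 CPM in WT and at 72.6, 89.8 and 87.6 CPM in the Ythdf2-KO libraries. As for Dcp2, replicate 1 lay within the WT range and the other 2 above it (log2 fold change 0.23, SE 0.094, adjusted p = 0.162 by edgeR). Exons of Cnot9 overlap Usp37 on the other strand.

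The medians of the subgroups were set side by side. CCR4-NOT had a median log2 fold change of 0.072, with 8 of 11 genes above 0. The decapping genes had 0.046, with 6 of 10 above 0. NMD had -0.023, with 3 of 6 above 0. The exosome had -0.002, with 2 of 4 above 0, and the other deadenylases -0.025, with 1 of 3. The median over all genes tested was -0.006, and 0.072 in the CPM range of the decay genes, the same as that of CCR4-NOT. Above 0 were 9358 of 18969 genes tested, and 4264 of 6884 in that CPM range. Differences between subgroup medians were not tested.

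The libraries themselves showed how far replicates spread. As the median log2 ratio to the WT mean, CCR4-NOT genes stood at -0.009, 0.017 and -0.002 in the WT libraries and at 0.027, 0.11 and 0.079 in the Ythdf2-KO libraries. The decapping genes stood at 0.002, 0.043 and -0.013 in WT and at -0.038, 0.09 and 0.077 in the Ythdf2-KO libraries. For NMD the WT libraries alone ran from -0.072 to 0.1, wider than the 3 Ythdf2-KO libraries (-0.041 to 0.019). For the exosome they ran from -0.059 to 0.042 in WT and from -0.071 to 0.056 in the Ythdf2-KO libraries. Ythdf2-KO replicate 1 lay on the same side of the WT mean as the mean of replicates 2 and 3 in 24 of 34 genes, and in 15 of those it was closer to it.

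**Figure D3:**
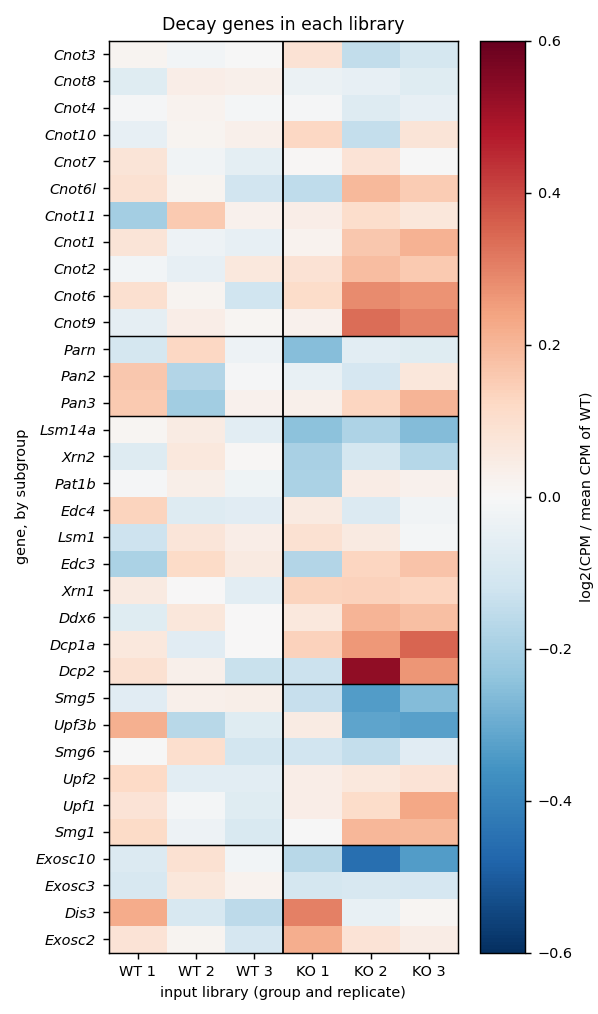
Log2 ratio of CPM to the WT mean for the 34 tested decay genes (rows, by subgroup) in each input library (columns), red for above and blue for below. Ythdf2-KO replicates 2 and 3 resemble each other, with Dcp2 above and Exosc10 below the WT mean, while in replicate 1 Dcp2 lies below the WT mean and Exosc10 is paler.

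The calls depended on which libraries were used. Without Ythdf2-KO replicate 1, edgeR called 4 of the genes higher (Cnot6 at 0.28, Dcp1a at 0.31, Cnot9 at 0.32 and Dcp2 at 0.41, log2 fold change) and 3 lower (Exosc10 at -0.39, Smg5 at -0.29 and Lsm14a at -0.22). With that library left out 35.4% of all genes were called (19.3% higher, 16.1% lower), so 7 of 34 were no more than the background. Leaving out any 1 of the other 5 libraries gave 0 calls among the 34, where 0.476% of all genes were called without WT replicate 1, 0% without WT replicate 2, 0.0257% without WT replicate 3, and 0.0204% and 0.00509% without Ythdf2-KO replicates 2 and 3. Leaving out replicate 1 of both groups gave 10 higher and 5 lower, against a background of 46.5% (24.9% higher, 21.6% lower).

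The share of each paralog was compared within pairs. The Cnot6 share of Cnot6 plus Cnot6l, per length, was 76.6%, 76.5% and 76.5% in WT and 79.6%, 77.7% and 78.0% in the Ythdf2-KO libraries. All 3 of the latter were higher, by 1.89 percentage points on average (exact permutation test, two-sided p = 0.1, the smallest that 3 against 3 allows, and 0.3 adjusted over the 3 pairs, of which Dcp1a with Dcp1b was 100% in every library and could not differ). Cnot6 itself was at 102, 96.9 and 88.1 CPM in WT and at 103, 117 and 116 CPM in Ythdf2-KO (log2 fold change 0.22, adjusted p = 0.139 by edgeR). The Cnot7 share of Cnot7 plus Cnot8 was 25.8%, 23.0% and 22.7% in WT and 24.3%, 25.4% and 24.7% in the Ythdf2-KO libraries, and the groups overlapped (exact permutation test, two-sided p = 0.4, 0.6 adjusted). Reads shared between paralogs could be split by the counting, so these shares are uncertain by an unknown amount.

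The remaining members differed less. Among CCR4-NOT, the scaffold Cnot1 was at 287, 267 and 264 CPM in WT and at 277, 305 and 315 CPM in Ythdf2-KO (log2 fold change 0.13, adjusted p = 0.286 by edgeR). Its groups overlapped through replicate 1. Cnot2, Cnot3, Cnot4, Cnot6l, Cnot7, Cnot8, Cnot10 and Cnot11 had log2 fold changes from -0.053 to 0.14. Of the other deadenylases, the catalytic Pan2 had -0.025, its partner Pan3, which binds the poly(A)-binding protein, had 0.12, and Parn, which also trims small noncoding RNAs, had -0.13, and their groups overlapped.

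Among the decapping genes, Xrn1 was at 49.9, 48.2 and 46.0 CPM in WT and at 52.7, 52.8 and 52.5 CPM in the Ythdf2-KO libraries. Its groups did not overlap and its 3 Ythdf2-KO libraries were close together (log2 fold change 0.13, adjusted p = 0.25 by edgeR). Xrn2 was at 218, 241 and 231 CPM in WT and at 201, 214 and 204 CPM in the Ythdf2-KO libraries, lower in each (log2 fold change -0.16, adjusted p = 0.183 by edgeR). The helicase Ddx6, a P-body component and decapping activator, had a log2 fold change of 0.15 and overlapping groups. The enhancers of decapping Edc3 and Edc4, the ring subunit Lsm1 and its partner Pat1b had values from -0.035 to 0.048.

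Among the NMD genes, the helicase Upf1 was at 90.1, 84.5 and 81.0 CPM in WT and at 87.7, 91.9 and 100 CPM in the Ythdf2-KO libraries, with overlap (log2 fold change 0.13, adjusted p = 0.308 by edgeR). Smg1, the kinase of UPF1, also had 0.13, and Upf2, which links UPF1 to UPF3B, had 0.061. Upf3b, which bridges to the exon junction complex, was at 88.1, 67.9 and 72.5 CPM in WT and at 78.8, 61.1 and 60.9 CPM in the Ythdf2-KO libraries, so replicate 1 was the highest in each group (log2 fold change -0.19, adjusted p = 0.403 by edgeR). The endonuclease Smg6 had -0.11. In the exosome, the cap subunit Exosc3 had -0.1 and Exosc2, another cap subunit, 0.12, while the catalytic subunit Dis3 had 0.1 with the highest value of each group again in replicate 1.

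Further genes of the decay machinery spread more widely. Of 59 further decay genes in the table, from a list that covers other exosome, LSM, exon junction, NMD and RNase MRP subunits, 57 were tested and 0 were called by edgeR. Their log2 fold changes ran from -0.56 to 0.72. Within 0.32 of 0, a bound just beyond the largest change of the genes above, were 86.0%. Exosc6 (1 to 122 counts) and Rpp25 fell below the filter on low counts. At an unadjusted p below 0.05 there were 10 (7 higher and 3 lower), against the 29.5% of all genes given above. DESeq2 called 6 higher and 1 lower, where it called 12.9% of all genes higher and 6.83% lower, so these counts are near or below the background. The lowest adjusted p was that of Lsm6, a ring subunit shared by the cytoplasmic and nuclear LSM complexes, at 77.5, 68.4 and 65.9 CPM in WT and at 86.5, 93.3 and 90.2 CPM in Ythdf2-KO (log2 fold change 0.35, adjusted p = 0.0543 by edgeR). The largest change was that of Angel1, a relative of the Ccr4-type deadenylases, at 10.9, 11.3 and 9.78 CPM in WT and at 13.2, 19.6 and 20 CPM in Ythdf2-KO (log2 fold change 0.72, adjusted p = 0.0584 by edgeR). Ythdf2-KO replicate 1 was the nearest to WT. The exosome ring subunit Exosc5 was at 25.5, 33.9 and 37.4 CPM in WT and at 23.2, 21.4 and 21.0 CPM in Ythdf2-KO (log2 fold change -0.56, adjusted p = 0.0679 by edgeR). These 3 genes, with no overlap between groups, were singled out after their values were seen.

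In the peak lists, transcripts of the machinery were commonly m6A-marked. A WT m6A peak was assigned to 30 of the 35 genes (85.7%), as for 78.9% of tested genes in the same CPM range and 48.7% of all tested genes. The Ythdf2-KO m6A list also marked 30 (85.7%, against 76.6% in that CPM range and 45.0% of all tested genes). A RIP peak was assigned to 20 (57.1%, against 54.3% in that CPM range and 34.3% of all tested genes). These shares are near those of genes of like abundance. Both an m6A peak in WT and a RIP peak were present in 17 genes (against 49.6% in that CPM range and 29.2% of all tested genes), m6A alone in 13, RIP alone in 3 (Pan2, Edc4 and Lsm1) and neither in 2 (Dcp1b and Exosc2). With 1 list per group these counts carry no replicate error.

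RIP peaks were counted by subgroup, beside the 54.3% of genes with one in the same CPM range and 34.3% of all tested genes. They were assigned to 9 of 11 decapping genes, 6 of 11 CCR4-NOT genes, 3 of 6 NMD genes, 2 of 3 other deadenylases and 0 of 4 exosome genes. All 4 exosome genes had an m6A peak in at least 1 genotype, with Exosc2 marked in the Ythdf2-KO list alone. In WT, m6A peaks were on 11 of 11 CCR4-NOT, 6 of 6 NMD, 8 of 11 decapping, 3 of 4 exosome and 2 of 3 other deadenylase genes. No test sets these subgroups apart, since each holds few genes.

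The cover of transcripts by RIP peaks varied widely. In 6 of the 17 genes with both kinds of peak (Cnot2, Pan3, Dcp1a, Dcp2, Ddx6 and Smg1), RIP peaks covered at least 85% of the transcript, a threshold set after the values were seen. The cover ran from 87.7% for Cnot2 to 97.7% for Smg1, 98.5% for Dcp2 and 100% for Ddx6. All 16 WT m6A peaks of these 6 genes overlapped a RIP peak, which such cover makes nearly certain. In the other 11 genes the cover ran from 3.5% for Upf2 to 51.7% for Cnot7, and 12 of 23 WT m6A peaks overlapped a RIP peak. The share of all genes with cover of at least 85% was not worked out. Whether such cover is particular to the decay genes is therefore not known. Cnot1, the scaffold that YTHDF2 contacts, had 13 RIP peaks over 44.7% of its transcript, nearly all in the coding sequence, and 1 m6A peak in the 5′UTR. Edc3, Cnot6 and Pat1b had m6A and RIP peaks in separate parts of the transcript.

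**Figure D4:**
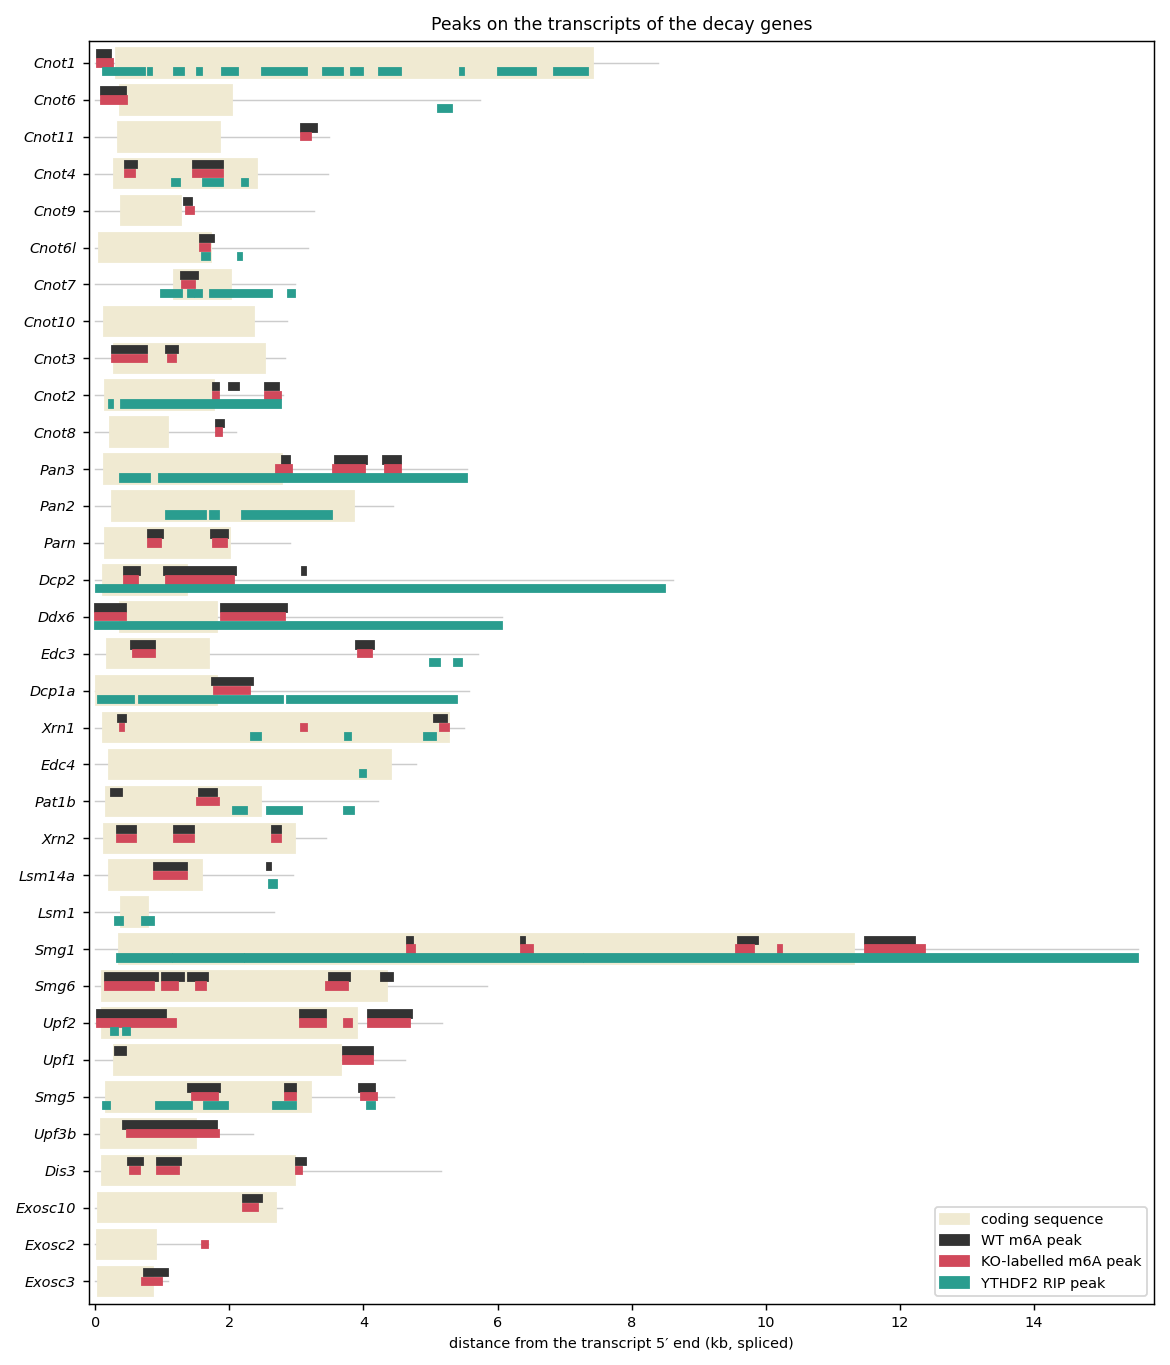
Peaks on the spliced transcripts of 34 decay genes, grouped by subgroup, as distance in kilobases from the 5′ end, with separate bars for m6A peaks of WT, m6A peaks of Ythdf2-KO and RIP peaks and the coding sequence shaded. RIP bars run along nearly the whole of Dcp2, Ddx6 and Smg1 and are missing from the 4 exosome genes. Peaks on other isoforms, such as the single m6A peak of Cnot10, are not drawn.

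The m6A lists of both genotypes mostly coincided on these transcripts. Of 65 WT m6A peaks, 54 (83.1%, exact 95% interval 71.7 to 91.2) overlapped a Ythdf2-KO m6A peak, as did 80.3% of WT peaks over all genes. Of 58 Ythdf2-KO peaks, 54 (93.1%, 83.3 to 98.1) overlapped a WT peak, against 89.3% over all genes. The 11 peaks in the WT list alone lay in 10 genes (Cnot2, Cnot7, Cnot10, Parn, Dcp2, Xrn1, Lsm14a, Pat1b, Upf1 and Smg6). They were shorter than the shared peaks (median 151 against 300 exonic bases) and had weaker deposited scores, read as p-values (median 1.4e-09 against 5.2e-39). The 4 in the Ythdf2-KO list alone (Xrn1, Upf2, Smg1 and Exosc2) had a median score of 1.25e-06. No difference in m6A level between the genotypes was tested.

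Of the 65 WT m6A peaks, 28 (43.1%, 30.8 to 56.0) overlapped a RIP peak, against 48.3% over all genes. In the other direction, 24 of 79 RIP peaks (30.4%, 20.5 to 41.8) overlapped a WT m6A peak, against 34.2%. Both intervals hold the value of all genes. By position, 58.3% of the 60 WT m6A peak centres that could be placed lay in coding sequence and 36.7% in the 3′UTR, against 61.1% and 34.9% over all genes. The stretch 200 bases to either side of the stop codon held 16.7% of the centres (8.29 to 28.5), against 25.7%. RIP peak centres lay in coding sequence in 53 of 70 cases (75.7%, 64.0 to 85.2) against 56.5% over all genes, and in the 3′UTR in 21.4% (12.5 to 32.9) against 41.0%. Peaks of 1 gene are not independent of each other, and Cnot1 and Pan3 alone hold 24 of the 79 RIP peaks, so these intervals are too narrow.

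The pentamer shown in capitals in the sites above was denser inside m6A peaks. GGACT, searched on the transcript strand, occurred 25 times in 20.1 kilobases of WT m6A peaks of these genes (1.24 per kilobase) and 90 times in 116 kilobases outside them (0.778 per kilobase). Over all genes with peaks the densities were 1.56 and 0.994. The reversed pentamer TCAGG, a control of the same base composition whose last 2 letters can overlap the first 2 of GGACT, stood at 1.44 inside and 1.49 outside. Among windows of 101 bases at peak centres, 18.3% of 60 held GGACT in WT m6A peaks of the decay genes, against 16.8% over all genes. In RIP windows it was 15.7% of 70 (11 windows), against 9.45% over all genes. Over whole RIP peaks of the decay genes the density of GGACT was 0.955 per kilobase inside and 0.956 outside, and 1.05 and 1.09 over all genes.

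Transcripts with a RIP peak were longer. The 20 decay genes with a RIP peak had a median transcript of 4977 bases with a 3′UTR of 1398 bases, and the 15 without had 2906 and 893 bases. Over all tested genes in the same CPM range the medians were 3902 and 1338 bases with a RIP peak and 2184 and 585 bases without. The part of length in the assignment of peaks was not tested.

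RIP peaks and change in level were set side by side. The 20 tested genes with a RIP peak had a median log2 fold change of 0.067, with 14 above 0, and the 14 without had -0.052, with 6 above 0. In the same CPM range, all genes with a RIP peak had a median of 0.10, with 2503 of 3739 above 0. Those without had 0.037, with 1761 of 3145 above 0. The 14 of 20 is near its background share, and the 6 of 14 is below its own. The ranges of both sets of decay genes overlapped nearly in full, from -0.24 to 0.25 with a RIP peak and from -0.31 to 0.23 without. Among the genes covered nearly end to end, Dcp1a and Dcp2 had the highest log2 fold changes of the 34, both 0.25, and Cnot2, Pan3, Ddx6 and Smg1 had 0.14, 0.12, 0.15 and 0.13. None of the 6, which were grouped by a threshold set after the values were seen, was called. For Dcp2, Ythdf2-KO replicate 1 sat at the lowest WT value. A link between cover and change was not tested. Exosc10, with an m6A peak and no RIP peak, had the lowest value. The next lowest, Smg5 at -0.24 and Lsm14a at -0.23, had both m6A and RIP peaks.

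**Figure D5:**
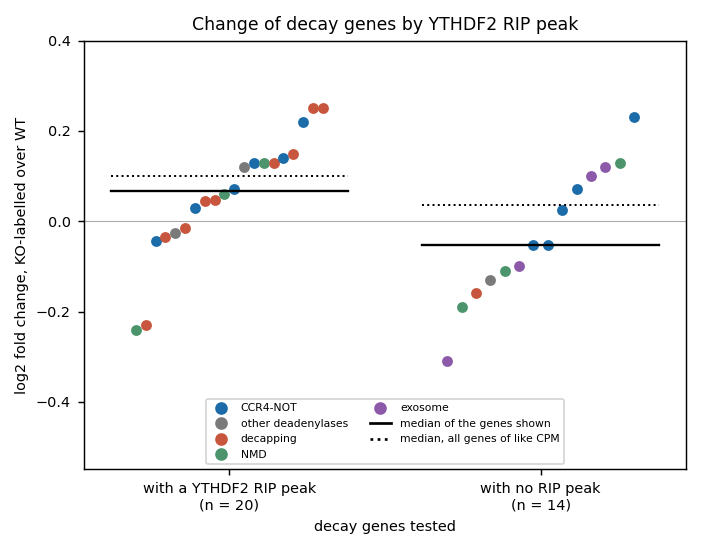
Log2 fold change, Ythdf2-KO over WT, of the tested decay genes with a YTHDF2 RIP peak (n = 20) and with none (n = 14), coloured by subgroup, with the median of the genes shown as a solid line and that of all genes in the same CPM range as a dotted line. Values of both sets overlap, and both medians lie below the dotted lines.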

How the data were processed

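Whole-number read counts per gene for 6 input libraries were deposited by the authors with no normalization, and 0 columns belonged to other samples. The submitters' processing notes name HISAT2, HOMER, ChIPseeker and mm10 without saying what each was used for. No source used here names the counter, strand setting, annotation or peak caller. The 3 deposited peak lists give exonic blocks, a gene and a score, which was read as a p-value from its values alone, and how libraries were combined is not stated. Counts were tested with edgeR 4.0.16 (TMM, filterByExpr, quasi-likelihood F test, Benjamini-Hochberg adjustment over 18969 genes, threshold 0.05) in R 4.3.3, with DESeq2 1.42.0 as an alternative. CPM uses TMM-scaled library sizes. The test was checked on simulated counts. These were drawn for each gene on its own, with no library standing apart, so the check does not cover that feature of the real libraries. Overlap of peaks means 1 or more shared exonic bases, strand matched, and intervals on shares are exact Clopper-Pearson (95%), for counting error only. Permutation tests went through every split of the libraries in Python 3.11.15, and SciPy 1.17.1 was used for the 95% intervals of fold changes. Gene positions, lengths and sequences come from GENCODE M21, matched by gene ID without version for all 35 genes. Peak positions were placed on the transcript with the longest coding sequence. The labels do not say that replicates were separate cultures, so p-values measure only the spread between these samples, and no pair of libraries agreed within sampling noise. The genes, lists and tests were chosen with earlier results of these data known. The text names all 35 genes and gives in full those past the threshold and the 3 with the largest rises and falls. Immunoprecipitation signal per library was not analysed here.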

Additional observations from a re-analysis of the deposited data

How the results depend on the processing

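Counts of calls moved most with the libraries. With single libraries left out, calls among the 34 decay genes ran from 0 to 4 higher and from 0 to 3 lower, among the 57 other decay genes from 0 to 11 and from 0 to 10, and among all genes (568 higher, 293 lower) from 0 to 3782 and from 0 to 3144. Leaving out replicate 1 of both groups gave 10 and 5, 14 and 14, and 4758 and 4126. DESeq2 gave 0 and 2, 6 and 1, and 2141 and 1133. With no filter on low counts, 70 and 41 genes were called in all, and none of the decay genes. The cause was not tested. Correlations of deviations between WT and Ythdf2-KO libraries of the same replicate number were low, at 0.0482, 0.114 and 0.0504. Those between different numbers ran from -0.0888 to 0.0247. Deviations within a group sum to 0, so lower values there follow from positive ones for the same number and add no support. A weak effect shared by replicate number is possible and was not tested. A replicate block gave 0 calls among the decay genes and 45 higher and 26 lower in all. The median of the other deadenylases (-0.025) reached 0.052 without WT replicate 1 and 0.070 without replicate 1 of both groups. That of NMD (-0.023) ran from -0.070 to 0.015 with single libraries left out, and was 0.011 without replicate 1 of both groups.

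Of the 34 log2 fold changes, 9 changed sign with libraries left out, all uncalled. With single libraries left out, Cnot7 ran from -0.005 to 0.057, Cnot10 from -0.027 to 0.1, Cnot11 from -0.033 to 0.16, Pan2 from -0.1 to 0.052, Edc3 from -0.052 to 0.15, Edc4 from -0.054 to 0.043, Lsm1 from -0.026 to 0.088, Pat1b from -0.074 to 0.037 and Dis3 from -0.015 to 0.21. Without replicate 1 of both groups, Cnot10 was at -0.056, Cnot11 at -0.007, Pan2 at 0.070, Edc4 at 0.015, Lsm1 at -0.042 and Pat1b at 0.029. Size factors of DESeq2 within edgeR, the choice of gene length for paralog shares, a stricter peak score of 1e-05 and an overlap of at least 50% of a peak changed no call or count by more than 1.5 times. The stricter score left 18 decay genes with a RIP peak.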
